A study of Mus musculus with 7 samples.

Results

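The genes described here are 9 genes known from natural killer (NK) cells: 4 lectin-like receptors (Klrb1c, Klrd1, Klrk1 and Klrg1), the cytotoxic granule gene Nkg7, and 4 signalling adaptors (Cd247, Tyrobp, Hcst and Fcer1g). They were picked by symbol from the 24015 rows of 1 count table, with earlier old against young results of these libraries in view, so their differences between the groups are descriptions. The table held 3 bulk RNA-seq libraries of old and 4 of young mouse haematopoietic stem cells (HSCs), which give rise to all blood lineages. In both groups the cells came from bone marrow of C57BL/6 mice with no other allele or treatment named, and were sorted as LSK (lineage-negative, Sca-1+, c-Kit+), CD150+ and CD48-. The groups differed by the label of age, without a number of weeks or months. Whether a library stands for 1 mouse or a pool was not given, so p-values here measure the spread between these libraries, which may be technical. The comparison of old with young asked what changes in HSC transcription with age.

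NK cells are innate lymphocytes that kill infected or altered cells, and they weigh signals from activating and inhibitory receptors encoded largely in the NK gene complex. Activating receptors of this kind have short cytoplasmic tails and signal through small transmembrane adaptors. Cd247 (the zeta chain of the T cell receptor complex), Fcer1g (the common gamma chain of Fc receptors) and Tyrobp (DAP12) carry ITAM motifs that recruit the kinases Syk and Zap70, whereas Hcst (DAP10) recruits phosphoinositide 3-kinase. HSCs are not NK cells, and several of these adaptors also serve receptors of myeloid cells, mast cells and platelets.

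Library totals were 27369677 to 32401925 counts in old and 22203806 to 27146186 in young HSCs, so every old library was deeper than every young one. A count of 0 allowed a level of at most 0.0929 to 0.137 CPM (counts relative to a TMM-scaled library), the worth of 3 counts and for counting error only. The first principal component (27.7% of the variance) set young 1 apart and the second (21.5%) young 2. All 18 HSC markers checked had counts. Their summed level was 4443 to 5019 CPM in old and 2335 to 3467 CPM in young libraries. Among them Procr, the endothelial protein C receptor, was called higher in old HSCs (adjusted p = 0.00643, edgeR), a call lost without old 1 or old 3 (0.0558 and 0.0503).

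Of the 9 genes, 6 had counts and these 6 passed the filter on low counts. Klrd1, Klrk1 and Klrg1 had no count in any of the 7 libraries. Across the whole table, edgeR's quasi-likelihood test called 29 of 11506 genes (0.252%) at an adjusted p under 0.05, with 0.235% higher and 0.0174% lower in old HSCs. None of the 6 tested genes was among them. Klrb1c and Tyrobp had an unadjusted p under 0.05 in edgeR, as had 1049 of all 11506 tested genes. DESeq2 called 1 of the 6 (Tyrobp), as it did 3.75% of all tested genes, and limma-voom 0. There was no overlap between old and young libraries for Klrb1c, which was higher in old, as were 7.55% of all tested genes. Nor was there for Tyrobp, which was lower in old, as were 5.18% of all tested genes. Since the genes were chosen with this comparison known, nothing further is read from these counts. The median log2 fold change was 0.50 over the 6 genes, 4 of them positive, and -0.03 over all tested genes. Without 1 library it was 0.264 (without young 3) to 0.798 (without young 2).

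**Figure D1:**
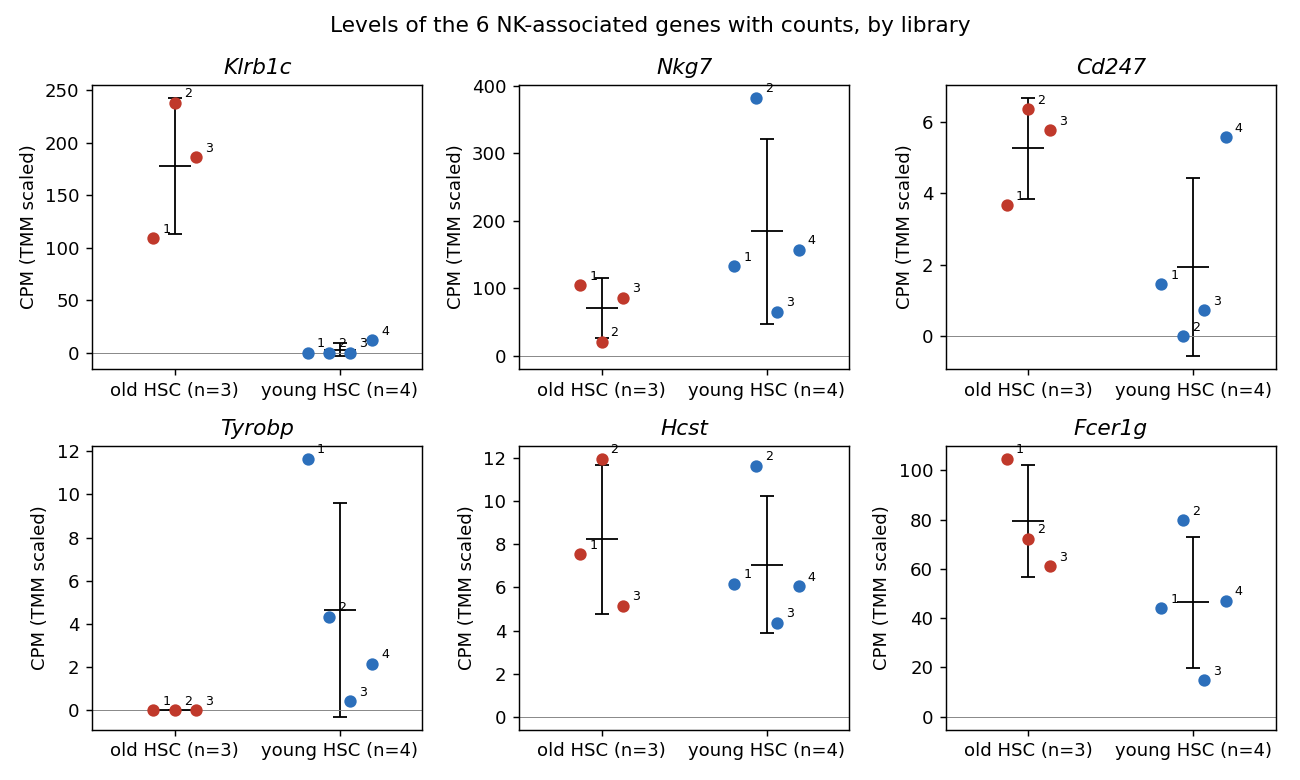
Level of each of the 6 genes with counts (vertical axis, CPM after TMM scaling) in old (red) and young (blue) HSC libraries. Points are single libraries with their number, the long bar is the mean and the whiskers are 1 SD (n = 3 old, n = 4 young). Klrb1c stood at 109 to 238 CPM in the old libraries and at 0 in 3 of the 4 young ones, and Tyrobp at 0 in all 3 old libraries.

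Klrb1c encodes NK1.1 (NKR-P1C), the activating receptor by which NK cells of C57BL/6 mice are commonly recognised and which signals through the Fcer1g chain. Its level was 109 CPM in old 1, 238 CPM in old 2 and 186 CPM in old 3. It was 0 CPM in young 1, young 2 and young 3 and 12.2 CPM in young 4. Every old library was therefore well above every young one, and 3 of the 4 young libraries held no Klrb1c read at all. The old libraries held 2892, 7698 and 4845 reads of the gene and young 4 held 349. The old mean of 178 ± 64.9 CPM (SD, n = 3) was 58.5-fold above the young mean of 3.04 ± 6.08 CPM (SD, n = 4). The log2 fold change was 5.86 ± 1.94 (SE) with an adjusted p of 0.324 in edgeR. Without young 4 the young group was at 0, the level was at least 1416-fold higher in old, and edgeR called the gene (adjusted p = 0.0104; 0.0104 to 0.604 over 17 alternatives). In bulk RNA, a different number of cells that express a gene and a different amount of RNA per cell cannot be told apart.

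Other genes that define NK cells were at or near 0 in the same libraries. Of 15 NK markers other than the 9 genes, 9 had no count in any library: Ncr1 (the receptor NKp46), Prf1 (perforin), the granzymes Gzma and Gzmb, the lectin-like receptors Klra8, Klra4, Klre1 and Klrc1, and the chemokine Xcl1. The other 6 had too few counts to be tested. Summed over the 15 genes, the level was 0.031 to 0.692 CPM in the old libraries and 0.0438 to 4.66 CPM in the young ones. The highest sum was that of young 3, where it came from the chemokine Ccl5 and where Klrb1c was at 0. Klrd1 and Klrk1, receptors that NK cells of mice carry in abundance, were at 0 in the libraries with the most Klrb1c.

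**Figure D2:**
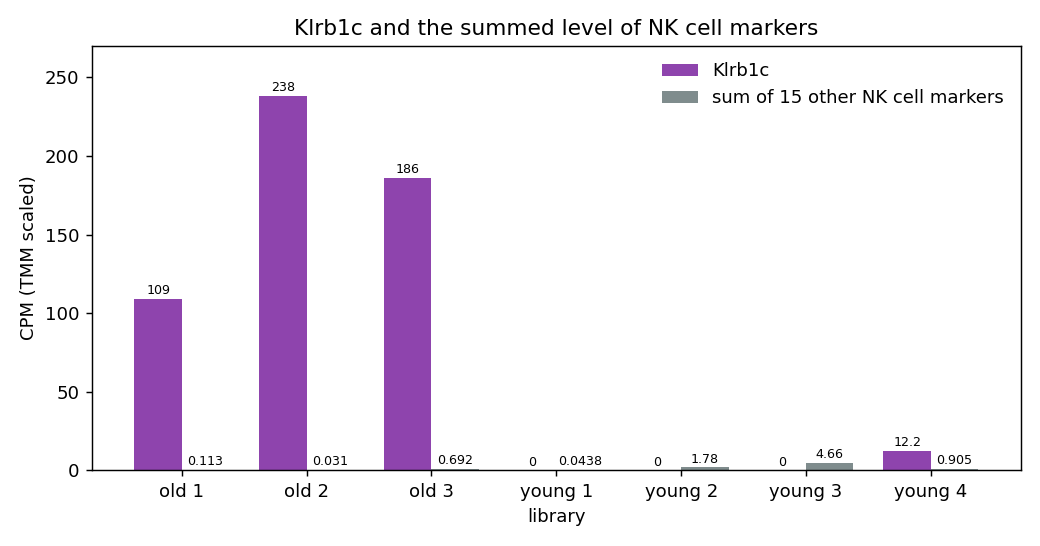
Klrb1c (purple) and the summed level of 15 other NK cell markers (grey) in each library, in CPM after TMM scaling, with values printed above the bars. In old 1 to old 3 Klrb1c stood at 109 to 238 CPM beside a marker sum of at most 0.692 CPM.

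Markers of T and B cells did not separate the groups. The T cell sum was 141 to 218 CPM in old and 136 to 217 CPM in young libraries, nearly all from the adaptor Lat, with Cd3e, Cd8a and Cd8b1 at 0 throughout. The B cell sum was 73.4 to 208 CPM in old and 122 to 185 CPM in young libraries, nearly all from Cd79b, with Pax5, Ebf1, Ms4a1 and Rag1 at 0 throughout. The mast cell and basophil sum was higher in every old library, at 20.2 to 66.8 CPM in old and 0 to 10.9 CPM in young libraries. In the old libraries it came from the protease gene Cpa3 and from Fcer1a alone, with Ms4a2, Mcpt8, Cma1 and 6 more of the 12 genes at 0 in all 7. Cpa3 was at 38.9, 20.2 and 15.02 CPM in old 1 to old 3 and at 0, 10.4, 2.53 and 0.244 CPM in young 1 to young 4 (adjusted p = 0.729, edgeR).

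The erythroid sum, at 7260 to 10233 CPM in old and 4251 to 7250 CPM in young libraries, came almost wholly from the carbonic anhydrase gene Car2 (8313 ± 1593 and 5165 ± 1344 CPM; adjusted p = 0.371). Log2 fold changes were negative for 5 of the 7 tested erythroid genes (median -1.05). The listed haemoglobin genes (Hbb-b1, Hba-a1 and Hba-a2) were at 0. Gata1, the erythroid and megakaryocytic transcription factor, was lower in every old library than in every young one, with means of 12.5 ± 14.6 and 115 ± 39.4 CPM (adjusted p = 0.499). Granulocyte and monocyte sums overlapped (1444 to 2250 and 917 to 1577 CPM), with 6 of 20 genes at 0. Of the 6 tested, 4 had a negative log2 fold change, with a median of -0.59 (0.299 without young 2). The protease gene Prtn3 was called higher in old HSCs (adjusted p = 0.0242, edgeR), which among fits without 1 library held only without young 1 or without young 3. Cd68, a macrophage lysosomal protein gene, averaged 14.2 ± 6.51 and 39.7 ± 19.8 CPM in the opposite direction (adjusted p = 0.615).

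Dendritic cell sums overlapped as well (388 to 2700 and 326 to 920 CPM). The class II gene H2-Aa had old and young means of 197 ± 225 and 65.9 ± 48.4 CPM (adjusted p = 0.612). The cytokine receptor gene Flt3 had no read in old HSCs or in young 1 and a young mean of 12.99 ± 15.9 CPM (adjusted p = 0.297). Megakaryocyte and platelet sums were 2247 to 2516 CPM in old and 2512 to 3387 CPM in young libraries. There Vwf, the platelet adhesion factor, averaged 67.6 ± 16.3 and 31.1 ± 3.73 CPM (adjusted p = 0.39), and the integrin gene Itga2b 7.19 ± 3.28 and 47.8 ± 28.4 CPM (adjusted p = 0.29). Among the HSC markers, the one of smallest p with a negative change was Kit (253 ± 104 and 364 ± 160 CPM; adjusted p = 0.874). The part of these markers and of depth in the level of Klrb1c was not tested.

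In the RefSeq order of mouse genes (assembly GRCm38.p6) Klrb1c lies between Klrb1 and Klrb1b, while Clec2h separates Klrb1a from Klrb1, and Klrb1f lies between Clec2f and Clec2e. Of the 37 rows of the table whose symbol begins with Klr, 32 had no count in any library, among them Klrb1, Klrb1a and the NKG2 receptors Klrc1, Klrc2 and Klrc3. In the old libraries 15435 reads fell on Klrb1c and 19 on all other rows of this kind. Of these, 18 were on Klrb1b, an inhibitory receptor, and 1 on the pseudogene Klrb1-ps1, all in old 3. In the young libraries the other rows held more reads than Klrb1c, 736 against 349. These came from Klrb1f, an activating relative, with 370 reads in young 1 and 364 in young 4, and from Klra3, with 2 reads in young 1. Klrb1f was thus at 16.2 and 12.7 CPM in those libraries and at 0 in the other 5, which included every old library, and it was not tested. Young 4 was the only library with both Klrb1c and Klrb1f. In the GENCODE M21 annotation, 18.1% of the stretches of 50 bases of the longest Klrb1c transcript also occur in another gene, chiefly the gene model Gm44511, which overlaps it on the same strand, then Klrb1a and Klrb1b. Reads from these stretches could have been dropped or shared, and Klrb1c values are uncertain to that extent.

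The promoter of Klrb1c is printed because the gene had reads while Klrb1a, whose promoter matched it over the longest stretch among the 4 Klrb1 promoters compared with it, had none. The 250 bases before the start of each gene are given 5′ to 3′ on the strand of the gene, from RefSeq (GRCm38.p6), which is not the build of the count table. They lie at chr6:128788642-128788891 (minus strand) for Klrb1c, chr6:128622935-128623184 (minus strand) for Klrb1a and chr6:129045651-129045900 (plus strand) for Klrb1f. Capitals mark TGTGGT, the core letters bound by RUNX factors, searched on both strands.
Klrb1c: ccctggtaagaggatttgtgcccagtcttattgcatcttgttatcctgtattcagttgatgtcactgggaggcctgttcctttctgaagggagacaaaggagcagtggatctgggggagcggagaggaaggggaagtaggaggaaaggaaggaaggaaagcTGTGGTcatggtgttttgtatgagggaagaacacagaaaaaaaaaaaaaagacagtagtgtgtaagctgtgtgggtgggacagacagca
Klrb1a: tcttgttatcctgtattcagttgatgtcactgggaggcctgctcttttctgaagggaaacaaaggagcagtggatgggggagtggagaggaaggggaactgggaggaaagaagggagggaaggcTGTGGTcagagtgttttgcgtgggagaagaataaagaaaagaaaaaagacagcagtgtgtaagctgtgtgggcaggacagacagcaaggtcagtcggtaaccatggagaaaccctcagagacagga
Klrb1f: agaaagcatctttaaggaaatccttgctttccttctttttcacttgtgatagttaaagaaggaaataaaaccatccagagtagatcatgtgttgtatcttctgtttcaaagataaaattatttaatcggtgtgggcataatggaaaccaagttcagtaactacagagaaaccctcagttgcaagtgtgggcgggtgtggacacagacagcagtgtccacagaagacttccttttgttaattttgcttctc
A local alignment, over these bases and the first bases past the start, matched 236 of 260 aligned bases (90.8%) between Klrb1c and Klrb1a. It matched 84 of 100 aligned bases (84%) with Klrb1b, 51 of 70 (72.9%) with Klrb1f and 33 of 38 (86.8%) with Klrb1, the adjacent gene, which had no reads either. The RUNX letters lay among similar bases in Klrb1c and Klrb1a, and the Klrb1a window ran on past the bases that ended that of Klrb1c. Counted from each annotated start, the RUNX letters began 89 bases before it in Klrb1c and 126 in Klrb1a. They were not in the window of Klrb1f. They were in the windows of 14% of 32851 promoters of the same length, including those of Klrk1 and Nkg7. The ETS letters GGAAGT (19.7% of promoters) began 119 bases before the Klrb1c start and did not overlap the RUNX letters. They were not in the Klrb1a window, but began 26 bases before the Klrb1f start and 14 before that of Klrb1b. GATA letters (AGATAA, 9.99% of promoters) began 141 bases before the Klrb1f start. GATA and AP-1 letters (TGACTCA, 4.46%) were in neither the Klrb1c nor the Klrb1a window. A window was at hand for 6 of the 9 genes.

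Klrd1, Klrk1 and Klrg1 complete the receptors. Klrd1 (CD94) forms heterodimers with NKG2 proteins that read the class I molecule Qa-1, Klrk1 (NKG2D) binds stress-induced ligands and signals through Hcst and Tyrobp, and Klrg1 is an inhibitory receptor for cadherins. All 3 had 0 counts in each of the 7 libraries. At this depth a level above 0.137 CPM would have exceeded the limit in any library, so expression under that level was not detectable and no fold is given. None of the 3 shared any stretch of 50 bases with another gene in the annotation. The adaptors Hcst and Fcer1g had counts in all 7 libraries, in which Klrk1 had none.

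Nkg7 encodes a membrane protein of cytotoxic granules that takes part in granule release. It was at 105 CPM in old 1, 21.3 CPM in old 2 and 86.5 CPM in old 3. In the young libraries it was at 133 CPM in young 1, 382 CPM in young 2, 65.4 CPM in young 3 and 158 CPM in young 4. Thus it had reads in every library, the groups overlapped, and old 2 was the lowest and young 2 the highest of the 7. The old mean, 70.8 ± 43.9 CPM, was 2.60-fold below the young mean of 184 ± 137 CPM, or 1.67-fold below it without young 2. The log2 fold change was -1.38 ± 0.67 (SE) with an adjusted p of 0.605 (edgeR). Old 2, with the highest Klrb1c, had the lowest Nkg7.

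The adaptors differed among themselves. Tyrobp (DAP12) serves Klrk1 and many activating receptors of NK and myeloid cells. It had no read in old 1, old 2 or old 3, and 11.7 CPM in young 1, 4.34 CPM in young 2, 0.433 CPM in young 3 and 2.16 CPM in young 4, from 266, 95, 12 and 62 reads. All 4 young libraries thus held Tyrobp and no old library did, although the old libraries were deeper. With a young mean of 4.65 ± 4.94 CPM, the level was at least 43.4-fold lower in old, or at least 21.6-fold without young 1, which held most of the reads. The fitted log2 fold change of -9.95 depends on the prior count and is no bound. Its adjusted p was 0.237 in edgeR and 0.00627 in DESeq2 (0.00627 to 0.835 over 16 alternatives). The young level was low, with 12 reads in young 3.

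Hcst (DAP10), the adaptor of Klrk1, lies next to Tyrobp in the RefSeq order. It was at 7.55, 11.98 and 5.15 CPM in old 1, old 2 and old 3, and at 6.18, 11.6, 4.37 and 6.06 CPM in young 1 to young 4. The ranges of the groups lay nearly on top of each other, unlike those of its neighbour. The means were 8.23 ± 3.47 and 7.06 ± 3.16 CPM, a log2 fold change of 0.22 ± 1.15 (SE; adjusted p = 0.988, edgeR), with the sign reversed without old 2 (-0.16). This difference was smaller than the spread within either group.

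Fcer1g, the adaptor through which NK1.1 signals and a subunit of the IgE receptor and of platelet glycoprotein VI, was the most abundant adaptor. It was at 105 CPM in old 1, 72.2 CPM in old 2 and 61.2 CPM in old 3, and at 44.1 CPM in young 1, 79.8 CPM in young 2, 14.9 CPM in young 3 and 47.04 CPM in young 4. The groups overlapped through young 2 alone, which stood above 2 of the 3 old libraries. The means were 79.4 ± 22.7 and 46.5 ± 26.6 CPM, 1.71-fold higher in old, with a log2 fold change of 0.77 ± 0.53 (SE) and an adjusted p of 0.814 (edgeR).

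Cd247 (CD3 zeta), which serves the T cell receptor and Fc receptors of NK cells, was at 3.66, 6.35 and 5.76 CPM in old 1 to old 3. It was at 1.45 CPM in young 1, 0 in young 2, 0.722 CPM in young 3 and 5.57 CPM in young 4. Young 4 lay within the old range, and the other young libraries lay below it. The means were 5.26 ± 1.41 and 1.93 ± 2.50 CPM, 2.72-fold higher in old and 7.27-fold without young 4, with a log2 fold change of 1.44 ± 1.85 (SE; adjusted p = 0.946, edgeR). Exons of Cd247 overlap those of Pou2f1 on the opposite strand over 3007 bases, and 84% of the 50-base stretches of its longest transcript are shared with other genes, nearly all with Pou2f1. The libraries do not mark strand, so reads of these genes cannot be told apart there and Cd247 is uncertain. Pou2f1 had an old mean of 14.1 ± 9.60 CPM, close to the young mean of 14.3 ± 14.6 CPM, and was lowest in young 2 (0.0913 CPM), where Cd247 was at 0.

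Levels of different genes were compared per kilobase (kb) of exon, in CPM per kb. In old HSCs the order was Fcer1g (90.8 ± 25.9), Nkg7 (77.5 ± 48), Klrb1c (60.1 ± 21.9), Hcst (11.4 ± 4.80), Cd247 (0.987 ± 0.265) and Tyrobp (0). The SDs of the first 3 overlapped, although Fcer1g was above Klrb1c within each old library (82.6 and 80.5 in old 2). In young HSCs the order was Nkg7 (202 ± 150), Fcer1g (53.2 ± 30.4), Hcst (9.78 ± 4.38), Tyrobp (6.97 ± 7.40), Klrb1c (1.03 ± 2.05) and Cd247 (0.363 ± 0.468). There the SDs overlapped for Nkg7 and Fcer1g, for Hcst and Tyrobp, and among Tyrobp, Klrb1c and Cd247. Within each young library, however, Nkg7 was above Fcer1g. The values were 145 and 50.5 in young 1, 418 and 91.3 in young 2, 71.6 and 17.0 in young 3, and 172 and 53.8 in young 4. By these means Klrb1c stood among the upper 3 of the 6 genes in old and above Cd247 alone in young HSCs. Fcer1g and Nkg7 held the first 2 places in both, although Nkg7 (23.3) was below Klrb1c in old 2. The young place of Klrb1c rested on young 4, where it was at 4.10, above Tyrobp (3.24) and Cd247 (1.05). In young 1, young 2 and young 3 Klrb1c was at 0, with Cd247 at 0.271, 0 and 0.136.

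Of the summed adaptor level per kb, Fcer1g made up 91.5%, 82.3% and 89.5% in old 1 to old 3, and 65.7%, 80.1%, 71.3% and 80.9% in young 1 to young 4. Every old library had a larger Fcer1g share than every young one. Since the shares are parts of the same sum, this order is not independent of the absence of Tyrobp in old. The level of Fcer1g itself overlapped between the groups. Tyrobp made up 0% in the old libraries and 22.8%, 5.71%, 2.72% and 4.87% in young 1 to young 4. The sum itself overlapped between the groups, at 78.2 to 131 CPM per kb in old and 23.9 to 114 CPM per kb in young libraries. Within the young group the adaptors did not move as one: young 1 held the most Tyrobp, young 2 the most Fcer1g and Hcst, and young 4 the most Cd247.

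**Figure D3:**
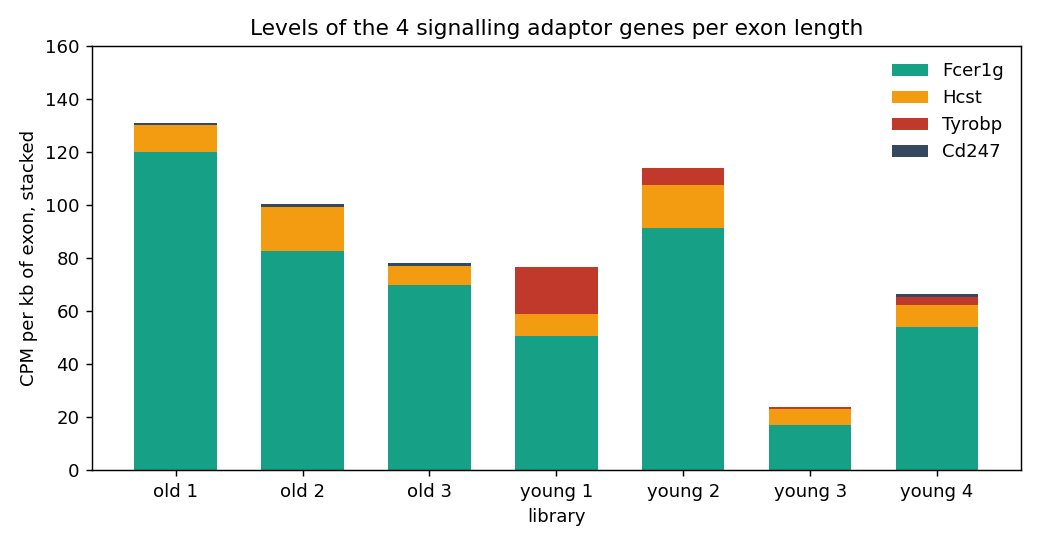
Levels of Fcer1g (green), Hcst (orange), Tyrobp (red) and Cd247 (dark blue) in each library, stacked, in CPM per kb of exon. Tyrobp was absent from the 3 old bars, and young 3 had the lowest sum (23.9 CPM per kb).

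Across the 7 libraries the levels of the 6 genes were set beside each other and beside 8605 genes that averaged 10 CPM or more, as Pearson correlations of log2 CPM given without a test, since the points share library and depth. Klrb1c and Tyrobp, each at 0 in libraries of 1 group, gave r = -0.818, and the neighbours Tyrobp and Hcst r = -0.0209. The highest r between 2 of the 6 genes was 0.794, for Klrb1c and Cd247. Next came Hcst and Fcer1g (0.69), Nkg7 and Tyrobp (0.67), and Klrb1c and its adaptor Fcer1g (0.546). The genes most like Klrb1c were Neo1 (r = 0.993), a receptor of netrins and repulsive guidance molecules, and Cfl2 (r = 0.993), an actin-severing cofilin. Neo1 had old and young means of 34.1 ± 23.1 and 1.91 ± 3.81 CPM, and Cfl2 of 141 ± 20.2 and 50.02 ± 24.9 CPM. Most like Nkg7 were Pgls (r = 0.974), an enzyme of the pentose phosphate pathway, and the RNA-binding protein gene Raly (r = 0.959). Most like Fcer1g were 2210013O21Rik (r = 0.992) and the thioesterase gene Acot13 (r = 0.99). The number of genes with r over 0.95 was 20 for Klrb1c, 4 for Nkg7 and 46 for Fcer1g.

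Other receptors of NK cells and of these adaptors were mostly silent or overlapping between the groups, and edgeR called none of them. Of 38 other lectin-like receptor genes in the table, 27 had no count in any library and 6 were tested. Of the 6, 0 were called by edgeR or DESeq2 and 0 had an unadjusted p under 0.05, and the median log2 fold change was 1.03, which was -0.0264 without old 1 and 0.326 without old 3. Clec9a, a receptor for dead cells, had an old mean of 6.33 ± 4.05 CPM beside a young mean of 0.285 ± 0.487 CPM (adjusted p = 0.624, edgeR). Cd69, an early activation antigen encoded in the NK gene complex, had means of 11.1 ± 3.35 (old) and 29.9 ± 29.6 CPM (young; adjusted p = 0.932), and its sign turned under limma-voom and under the replicate block.

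Of 26 other NK cell receptor genes, Ncr1, Cd244, Cd226, Tigit and 3 more had no count and 11 were tested. Of these 11, edgeR called 0, 1 had an unadjusted p under 0.05 (1049 of all 11506) and DESeq2 called 1 (3.75% of all tested genes). The median log2 fold change was -0.61, near 0 without old 2 (-0.0603) or young 2 (-0.0358) and 0.227 without young 3. Il12rb2, a chain of the interleukin-12 receptor, had no read in the old libraries against a young mean of 14.2 ± 18.6 CPM, with 41.8 CPM in young 3. That was at least 132-fold lower in old HSCs, or at least 46.6-fold without young 3, with an adjusted p of 0.165 (edgeR). The inhibitory collagen receptor Lair1 had an old mean of 56.8 ± 15.6 and a young mean of 33.8 ± 5.43 CPM (adjusted p = 0.724). A list of 25 receptors held those that pair with Tyrobp or Fcer1g and also the related receptor Fcgr2b, which pairs with neither. It also held Il3ra and Csf2rb, chains of the interleukin-3 receptor. Of these 25, 14 had no count, among them Trem1, Trem2, Siglech, Gp6 and Ms4a2. Of the 5 tested, edgeR and DESeq2 called 0, and Fcgr2b alone had an unadjusted p under 0.05 (1049 of all 11506 had). With Fcgr2b and Il3ra included, the median was -0.31, which was the value of Il3ra itself (-1.43 without old 3, 0.155 without young 2, for the median). Fcer1a, the alpha chain of the IgE receptor that contains Fcer1g, was at 27.9, 0 and 14.3 CPM in old 1 to old 3, at 0 in young 1 to young 3 and at 8.50 CPM in young 4. Fcgr2b, an inhibitory Fc receptor, had old and young means of 0.0413 ± 0.0715 and 7.80 ± 10.3 CPM (adjusted p = 0.466).

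Most genes of the signalling steps downstream of the adaptors had reads. Of 48 signalling genes, 44 had counts and 38 were tested. Zap70 was among the 4 at 0, and Syk had old and young means of 16.3 ± 5.83 and 42.04 ± 40.7 CPM (adjusted p = 0.902). Pik3r1, the regulatory subunit of the kinase that Hcst recruits, was the 1 gene that edgeR called, higher in old HSCs. Over all tested genes edgeR called 0.252%. Of the 38, 1 gene was higher and 3 were lower in old with an unadjusted p under 0.05 (1049 of all 11506). Pik3r1 was at 277, 336 and 374 CPM in old 1 to old 3 and 133, 107, 133 and 105 CPM in young 1 to young 4. For Pik3r1 every old library was above every young one, as for 4 of the 38 genes and 7.55% of all tested genes. The means were 329 ± 48.7 and 119 ± 15.6 CPM, a log2 fold change of 1.46 ± 0.22 (SE; adjusted p = 0.0457, edgeR). The call was lost without any 1 of the 7 libraries (adjusted p of 0.0536 to 0.253), while the log2 fold change stayed at 1.36 to 1.57. The adaptor Sh3bp2 had no read in old HSCs or in young 2 and had a young mean of 12.8 ± 16.6 CPM (adjusted p = 0.333). The median log2 fold change of the 38 genes was -0.34 (-0.659 without old 2, 0.00166 without young 3).

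Of 26 cytotoxic effector genes, 9 had no count in any library, among them Prf1, Gzma, Gzmb, Gzmc, Gzmk, Fasl, Ifng and Xcl1. The granzyme gene Gzmm had reads in young 1 alone (14.6 CPM), and Tnfsf10, the death ligand TRAIL, in all 7 libraries (means of 41.02 ± 15.6 CPM in old and 20.5 ± 12.03 CPM in young; adjusted p = 0.814). Both were named after their values were seen. Of the 14 tested genes, 13 had a positive log2 fold change (48.5% of all tested genes did), with a median of 0.64. For 6 of them every old library was above every young one, as for 7.55% of all tested genes. None of the 14 was called by edgeR, 5 had an unadjusted p under 0.05 (1049 of all 11506) and DESeq2 called 4 (3.75% of all tested genes). Serpinb9, the inhibitor of granzyme B, had an old mean of 102 ± 35.005 CPM and a young mean of 23.2 ± 11.6 CPM (log2 fold change 2.14 ± 0.58, adjusted p = 0.204). Others of the 6, chosen after their values were seen, were Srgn, the granule proteoglycan serglycin (1420 ± 474 and 745 ± 162 CPM), and the protease gene Ctsc (639 ± 51.5 and 393 ± 77.6 CPM). Stx11, a syntaxin of granule release, averaged 0.0256 ± 0.0444 and 11.2 ± 11.2 CPM (adjusted p = 0.355), with 0 CPM in young 1.

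Transcription factors of NK and innate lymphoid cells were likewise divided. Tbx21, Tcf7, Zbtb16, Prdm1 and 3 more of 23 had no count. Of the 14 tested, edgeR called 0, 3 had an unadjusted p under 0.05 (1049 of all 11506) and DESeq2 called 3 (3.75% of all tested genes). The median log2 fold change was 0.44 (-0.0587 without old 3, 0.194 without young 2). Tox, a nuclear factor needed for innate lymphoid development, had an old mean of 159 ± 31.02 CPM and a young mean of 42.5 ± 15.03 CPM (log2 fold change 1.90 ± 0.37, adjusted p = 0.106). Id2, an inhibitor of E proteins, and Klf2, named after their values were seen, had old means of 91.5 ± 34.04 and 94.7 ± 29.9 CPM and young means of 6.02 ± 5.61 and 14.7 ± 9.72 CPM (adjusted p of 0.181 and 0.159). For these 3 genes every old library was above every young one, as for 7.55% of all tested genes. Of the 14 tested, 4 were higher in old without overlap and 1 was lower without overlap (5.18% of all tested genes). Stat5a averaged 32.2 ± 19.2 and 60.96 ± 17.6 CPM (adjusted p = 0.776).

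Among ligands of NK receptors, those of Klrk1 were mostly silent, with Raet1a to Raet1e, H60b and Ulbp1 at 0, whereas class I genes were abundant. Of the 10 tested, edgeR called 0, 5 had an unadjusted p under 0.05 (1049 of all 11506) and DESeq2 called 5 (3.75% of all tested genes). The median log2 fold change was 1.13 (0.557 without old 3). H2-T23 encodes Qa-1, the ligand of the receptors that Klrd1 forms. Its level was 1307, 620 and 879 CPM in old 1 to old 3 and 272, 479, 277 and 457 CPM in young 1 to young 4, every old library above every young one. The log2 fold change was 1.33 ± 0.31 (SE; adjusted p = 0.162, edgeR). B2m, the class I light chain, averaged 5084 ± 2684 and 1736 ± 622 CPM (adjusted p = 0.176). Class I genes are similar in sequence, and their reads could be shared. Cd48, the ligand of Cd244 and the antigen excluded by the sort, had no read in the old libraries and was at 6.88, 1.87, 24.5 and 16.6 CPM in young 1 to young 4 (adjusted p = 0.159).

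**Figure D4:**
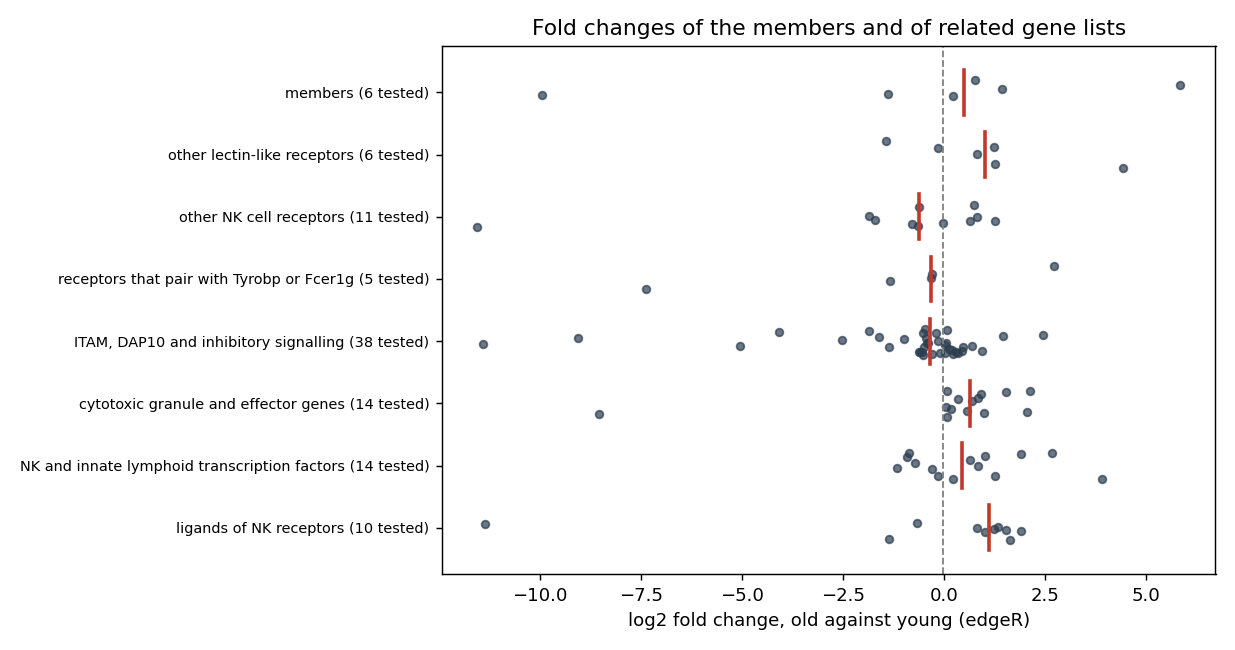
Log2 fold change of old against young HSCs (edgeR, horizontal axis) of each tested gene (points) in the 6 genes with counts (labelled members) and in the related lists, with the median of each list (red bar) and of all tested genes (dashed line, -0.03). Klrb1c is the point farthest to the right in the top row and Tyrobp the point farthest to the left. Strongly negative points such as Tyrobp and Cd48, which were at 0 in old HSCs, have fitted values that depend on the prior count.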

How the data were processed

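RNA-seq counts of 3 old and 4 young HSC libraries were used. Per the labels' protocols, polyadenylated RNA was turned into cDNA by Smart-seq+, and Nextera XT libraries, which carry no strand information, were made. The authors used, per the submitters' processing notes, Trimmomatic, FastQC, STAR, featureCounts and the genome build mm9. Versions, settings and annotation: not given in the sources used here. Raw read counts per gene symbol, whole numbers with no scaling visible in the values, make up the table deposited by the authors. No molecular identifiers are named, so amplification copies are counted.

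Groups were taken from the labels. Genes were kept with filterByExpr (minimum count 10, minimum total 15), 11506 of 24015, and scaled with TMM. The test was edgeR 4.0.16's quasi-likelihood F test in R 4.3.3, 2-sided, of old against young without covariates. P-values were adjusted by Benjamini-Hochberg over all 11506 genes, with a threshold of 0.05. SE is the absolute log2 fold change over the square root of F. Folds are ratios of mean CPM, and a group at 0 was set to 3 counts per library, averaged over its libraries (0.107 CPM in old, 0.12 CPM in young). A list's median was the same with such genes at their bounds. Log2 CPM for correlations used a prior count of 2. DESeq2 1.42.0, limma 3.58.1 (voom), other scalings and filters, the replicate block and leaving out libraries were alternatives. The procedure was tested on simulated data.

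The 9 genes, the lists and the alternatives were chosen with earlier results of these data known. Named genes were the 9, from each list every called gene and the gene of smallest p in each direction, and the 2 genes most like each of the 9 with a mean of at least 10 CPM. Others are marked as chosen later, or were named as markers or for their place or background. Exon lengths and overlaps came from GENCODE M21 and promoters from RefSeq, both for GRCm38, so no position in mm9 is given. Protein sequences were not used here.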

Additional observations from a re-analysis of the deposited data

Results flagged for a closer look

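In the young group of 4, a library was marked where its gap to the nearest other was too large a share of the group's range. The limit was Dixon's 95% critical value for 4 samples. Chance passes it in about 1 group of 20 for normally distributed values, which CPM values with zeros need not be. A library was marked for 6 of 33 genes checked, a count not set against that rate. For Klrb1c and Fcer1a the share was 1 whatever the level of young 4, since the other young libraries were at 0. Klrb1c was at 12.2 CPM in young 4 and at 0 CPM in the other young libraries. Fcer1a was at 8.50 CPM in young 4, also against 0 CPM in the others. Clec9a was at 1.01 CPM in young 4 against 0 to 0.131 CPM. Il12rb2 was at 41.8 CPM in young 3 against 2.72 to 8.98 CPM. Serpinb9 was at 5.89 CPM in young 2 against 27.4 to 30.9 CPM. The class II gene H2-Aa was at 138 CPM in young 2 against 35.4 to 51.4 CPM. In 3 of the 6 cases the library was young 4, the 1 young library with Klrb1c reads.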

How the results depend on the processing

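The number of genes called over the whole table was 29. It was 431 with DESeq2 (215 higher, 216 lower), 50 with limma-voom, 16 with scaling by library size alone, 0 with the replicate number as a block (694 at an unadjusted p under 0.05), 2 to 18 without 1 library, and 7 without young 1 and young 2 together, a fit added after seeing the data. Same-numbered libraries did not deviate together (r = 0.0254, -0.0745 and -0.0136), so the block rests on a number alone. Over all genes the median log2 fold change was -0.124 with library size alone and 0.101 with the block. Of the 6 tested genes, 0 were called, 1 with DESeq2, and 0 to 1 without 1 library. Hcst had a log2 fold change of -0.16 to 0.57 without 1 library, the negative value without old 2. The log2 fold changes of Klrb1c, Nkg7, Cd247, Tyrobp and Fcer1g kept their direction in every alternative that gave a value, and Cd247, Tyrobp and Hcst gave none under the filter of 10 CPM in 3 libraries. Cd69 turned positive with limma-voom (0.81) and with the block (0.55). Lat ranged from -0.0177 to 0.291 without 1 library. Cd79b was at -0.0373 with limma-voom, -0.0228 with library size alone, -0.147 to 0.393 without 1 library and -0.0706 without young 1 and young 2. The cause was not tested for any of these. Of 537 results of single genes under alternatives, 494 kept direction and side of the threshold, most of them for genes called in no fit compared. In 21 results a call was lost. Over 17 alternatives, Pik3r1 was called in 7, Prtn3 in 10 and Procr in 13. Depth limits statements on Klrd1, Klrk1 and Klrg1 to levels above 0.137 CPM.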
